A study of Mus musculus with 4 samples.

Results

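The genes described here encode subunits of 3 families of ATP-dependent chromatin remodellers, the BAF, ISWI and INO80 complexes. They were taken from the count table by symbol, and all 35 listed genes were found among its 24982 genes: 26 BAF genes, 6 ISWI genes and 3 genes of the INO80 family. The libraries came from dissected mouse forebrain at E10.5, in 2 groups of 2. Controls were Chd7 +/f, heterozygous for a floxed allele of Chd7, itself a remodeller gene of the separate CHD family. Conditional knockout (cKO) libraries carried Sox1 cre+/- with Chd7 f/f. The labels name no Cre for the controls, so an effect of the Cre allele cannot be told apart from that of Chd7 loss. Sox1-Cre acts in neural cells, and cells of other origin in the dissected tissue keep their floxed alleles. Whether embryos were pooled is not stated, and p-values measure only the spread between these libraries, which may be technical.

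Remodellers use ATP to slide, evict or exchange nucleosomes. BAF is built from an ATPase (Smarca4, also called BRG1, or Smarca2, also called BRM), a shared core and subunits that set its type: ARID1 proteins mark canonical BAF, ARID2, PBRM1, BRD7 and PHF10 mark PBAF, and BRD9 marks a non-canonical form. During neurogenesis several progenitor subunits are exchanged for neuronal paralogs, ACTL6A for ACTL6B, DPF2 and PHF10 for DPF1 and DPF3, and SS18 for SS18L1, and this switch accompanies the exit of progenitors from the cell cycle. ISWI complexes space nucleosomes, and the INO80 family exchanges histone variants. CHD7 has been found associated with PBAF in neural crest cells.

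Total counts were 16581252 to 17096522 per library. Levels are given in CPM, the usual depth-scaled count, here on TMM-adjusted library sizes. Each log2 fold change sets the cKO against the control and has its standard error (SE). Chd7 was at 339 and 345 CPM in control replicates 1 and 2 and at 136 and 132 CPM in the cKO replicates, 39.1% of the control level (edgeR adjusted p = 8.7e-05). Over all genes tested, 2.13% were called lower and 1.57% higher (edgeR adjusted p under 0.05). Neuron markers summed to 1142 and 955 CPM in the controls and 670 and 690 CPM in the cKO. Of these 16 markers, 5 were called lower and 0 higher. Neural progenitor markers summed to 3776 and 3365 against 2981 and 3200 CPM, with 3 of 10 called lower. Telencephalon markers summed to 766 and 592 against 491 and 401 CPM, with 2 of 5 called lower. Erythroid markers summed to 2849 and 3067 against 1893 and 1806 CPM, with 6 of the 8 tested called lower. Hba-a1 and Hba-a2 had 0 counts in every library and were not tested. Whether their reads were lost in counting was not examined, so the 0 is not read as absence of expression. Endothelial markers summed to 332 to 348 against 294 to 297 CPM, and mesenchyme markers to 962 to 1026 against 609 to 929 CPM. Myeloid markers summed to 29.5 to 32.3 against 22.6 to 27.8 CPM. In the endothelial, mesenchyme and myeloid lists 0 members were called. Both cKO libraries lay below both controls for 8 of 10, 3 of 10 and 3 of 8 of them, against 24.0% of all genes. They lay above both controls for 1, 0 and 1, against 24.3%. The 2 controls also differed from each other: the ventral midline gene Nkx2-1 had 57 counts in control replicate 1 and 577 in control replicate 2. In bulk tissue, fewer cells of a type and less RNA per cell cannot be told apart.

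Of the 35 subunit genes, the ATPase gene Smarca2 rose 1.48-fold in the cKO forebrain, and the other 34 were not called. All 35 genes passed the filter on low counts. Genes were called where the Benjamini-Hochberg adjusted p of edgeR's quasi-likelihood test, over 14235 genes, was below 0.05. Of the 35, 1 was higher, with 1.57% of all genes tested called higher, and 0 were lower (9 of 35 in either direction had an unadjusted p under 0.05), with 2.13% called lower; in either direction the share over all genes was 3.70%. A share of 1 in 35 is near that background. Leaving out control replicate 1, cKO replicate 1 or cKO replicate 2 took the count over all genes from 526 to 300, 334 and 211, and leaving out control replicate 2 took it to 769. Smarca2 was called in each fit without a library, and without control replicate 2 a further 5 members, Bcl7a, Smarcc2, Dpf1, Bcl11a and Bcl11b, were called lower, with 2.86% of the 14640 genes tested in that fit called lower. DESeq2 and limma-voom called the same member higher and 0 lower, as did the authors' deposited table (1 of 35 at an adjusted p under 0.05). For the members that table holds the same log2 fold changes as the DESeq2 fit, so it is not separate evidence.

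Of the 34 genes not called, 5 had a log2 fold change of 0.25 or more in size: Bcl11a (−0.80), Bcl11b (−0.44), Ss18l1 (−0.42), Dpf1 (−0.40) and Actl6b (−0.29). The size of the log2 fold change was under 0.25 for 29 of 35 members, 82.9%, against 71.9% of all genes tested. For 28 of 35 members the 95% interval of the fold change lay wholly within 1.5-fold in either direction; the others were Smarca2, the neuronal subunit genes Actl6b, Dpf1, Dpf3 and Ss18l1, and the zinc finger genes Bcl11a and Bcl11b. Those 9 members with an unadjusted p under 0.05 are 25.7%, against 17.5% of all genes. The median log2 fold change was −0.058 over the members, 25 of which were below 0, and −0.00028 over all genes, of which 50.1% were below 0. In 18 of 35 members both cKO libraries lay below both controls, which held for 24.0% of all genes, and in 5 both lay above, which held for 24.3%. These shares over all genes were not matched for level, and 33 of the 35 members had a control mean of at least 5 CPM. Summed over the 35 genes, the level was 6658 and 6538 CPM in the controls and 6361 and 6425 CPM in the cKO libraries, a ratio of 0.969.

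**Figure D1:**
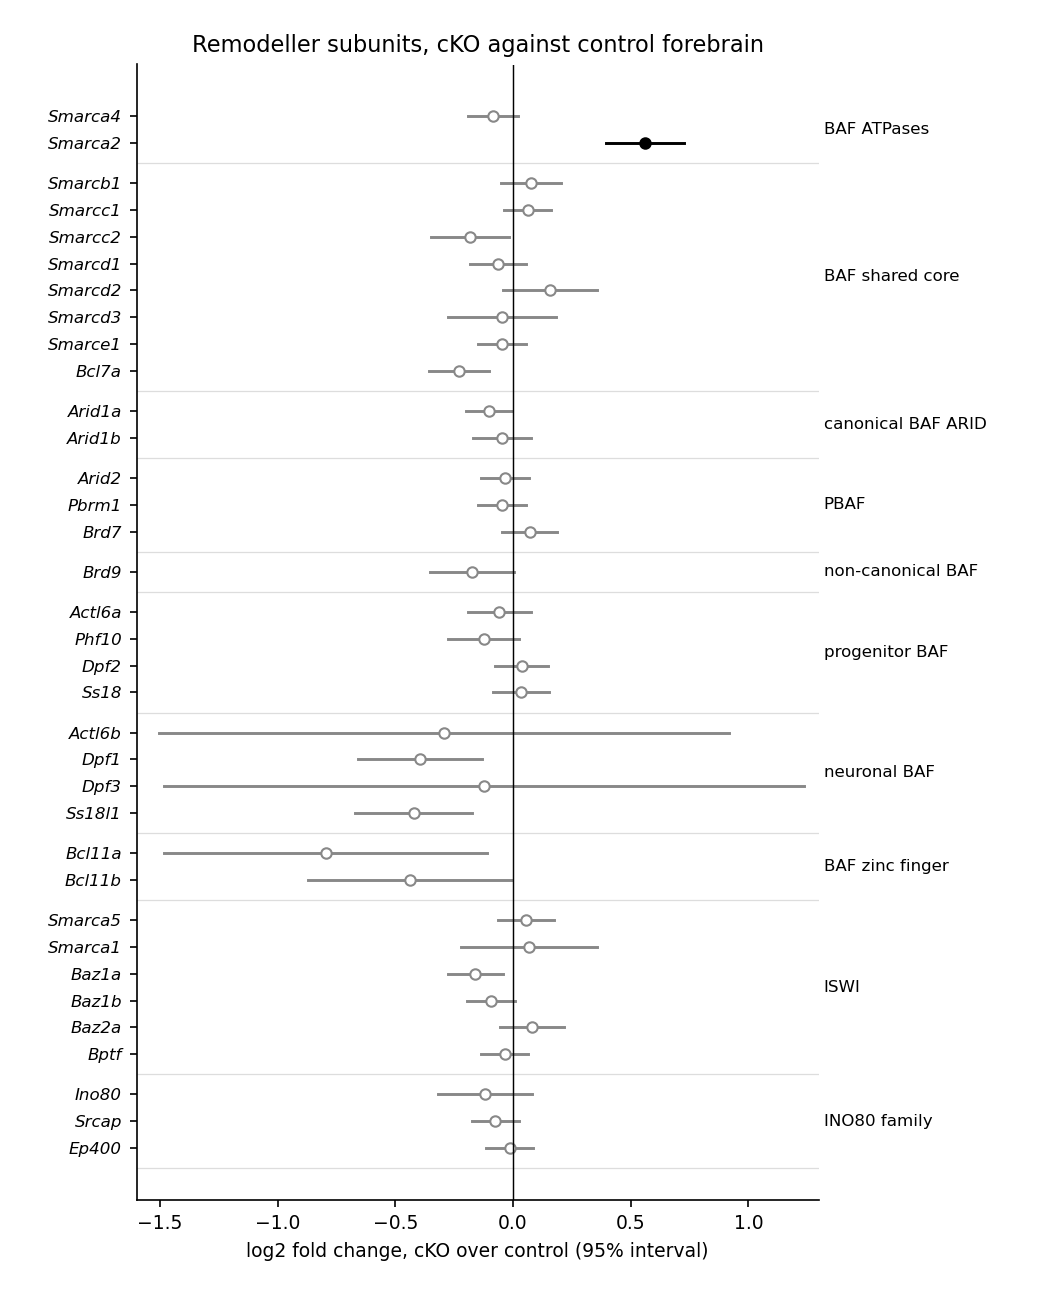
Log2 fold change of each of the 35 subunit genes, cKO over control, with its 95% interval from the edgeR fit, grouped by role in the complex. The filled black point, Smarca2 at 0.56, passed an adjusted p of 0.05; open grey points did not.

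**Figure D2:**
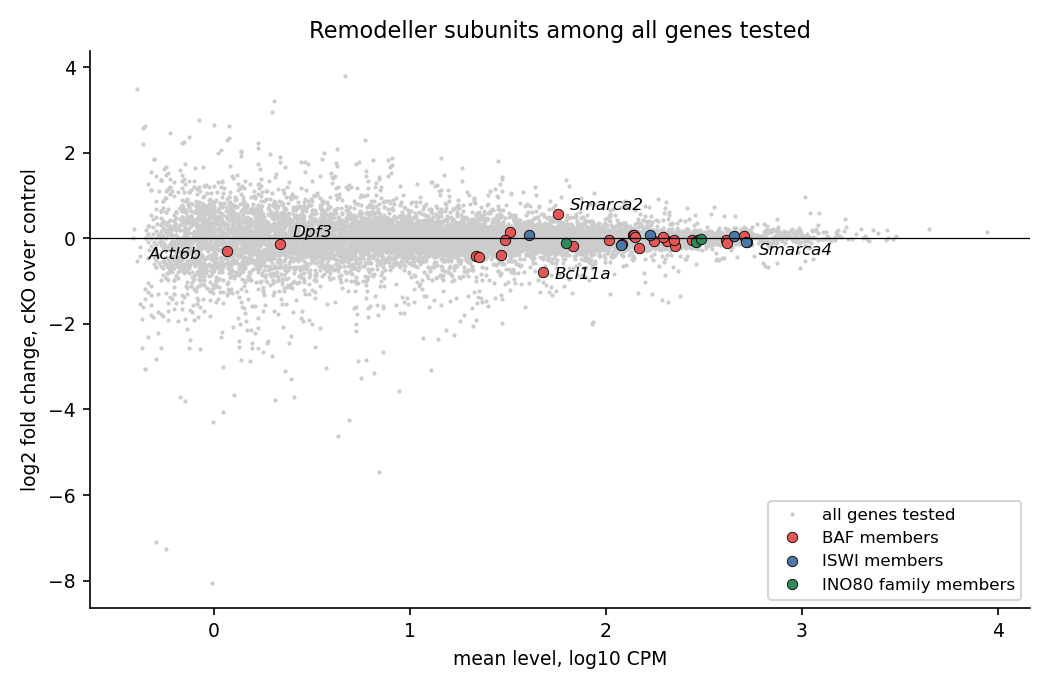
Log2 fold change against mean level on a log10 axis of CPM for all 14235 genes tested (grey) and the 35 subunit genes, coloured by family. Most members sit at high levels close to 0, with Smarca2 above and Bcl11a below.

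The catalytic ATPases of BAF are mutually exclusive in a complex. Smarca2 (GRCm38 chromosome 19, 26605073 to 26778321) was at 47.9 and 44.0 CPM in control replicates 1 and 2 and at 68.2 and 67.6 CPM in cKO replicates 1 and 2. The cKO libraries lay above both controls and differed from each other by less than 1 CPM. On the log2 scale the cKO was higher by 0.56 (95% interval 0.40 to 0.73, SE 0.071, edgeR adjusted p = 0.0082), and over the 11 alternatives it was 0.50 to 0.63 with adjusted p from 0.000187 to 0.0394. The authors' deposited table, made from the same libraries, gives Smarca2 a log2 fold change of 0.56 with an adjusted p of 0.000183. Smarca4 (chromosome 9, 21616106 to 21704230), the ATPase that neural progenitors depend on, was at 553 and 524 CPM in the controls and 500 and 515 CPM in the cKO (−0.085, SE 0.046, interval −0.19 to 0.022, adjusted p = 0.40). Its cKO values lay below both controls by a margin smaller than the gap between the controls.

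Smarca2 therefore made up a larger share of the ATPase counts in the cKO libraries. It supplied 7.97% (95% exact binomial interval 7.45 to 8.52) and 7.74% (7.22 to 8.29) of Smarca2 and Smarca4 counts in the controls, against 11.99% (11.3 to 12.7) and 11.6% (11.0 to 12.2) in the cKO. Such intervals cover counting error only. The share does not depend on library scaling, and the groups did not overlap. The log2 ratio of the ATPases differed by 0.65 (control −3.55 ± 0.032, cKO −2.90 ± 0.039; SD, n = 2; exact two-sided permutation p = 0.333, which is the smallest p that 2 against 2 can give; 0.555 adjusted over 5 ratios). Counts are per gene. GENCODE M21 lists 46 Smarca2 transcripts, 35 of which start 100 kb or more downstream of the first start. The counts were made over a RefSeq annotation, so which of these full-length and short transcripts were summed is not known. In GENCODE M21, exons of the opposite-strand gene 4931403E22Rik share 40 bases with those of Smarca2. The summed markers of endothelial, mesenchyme and myeloid cells, given above, were lower in both cKO libraries while Smarca2 was higher; their part in the Smarca2 value was not tested.

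The sequences upstream of the ATPase genes are shown because the ATPase ratio differed between groups, and that of Dpf1 for the neuronal subunits described further on. Each run reads 5′ to 3′ on the plus strand of GRCm38.p6 (RefSeq promoter table) and ends before the first annotated transcript start, with CG dinucleotides in capitals. They span chr19:26604910-26605049 for Smarca2 (140 bases, 16 CG), chr9:21615919-21616105 for Smarca4 (187 bases, 15 CG) and chr7:29303755-29303950 for Dpf1 (196 bases, 24 CG).
Smarca2: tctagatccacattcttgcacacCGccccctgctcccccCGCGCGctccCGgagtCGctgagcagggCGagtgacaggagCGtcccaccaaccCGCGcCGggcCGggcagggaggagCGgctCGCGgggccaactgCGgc
Smarca4: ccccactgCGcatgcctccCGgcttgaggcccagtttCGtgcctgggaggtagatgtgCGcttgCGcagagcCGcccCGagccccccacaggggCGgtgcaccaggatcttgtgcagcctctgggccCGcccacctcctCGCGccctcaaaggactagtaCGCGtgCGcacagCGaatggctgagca
Dpf1: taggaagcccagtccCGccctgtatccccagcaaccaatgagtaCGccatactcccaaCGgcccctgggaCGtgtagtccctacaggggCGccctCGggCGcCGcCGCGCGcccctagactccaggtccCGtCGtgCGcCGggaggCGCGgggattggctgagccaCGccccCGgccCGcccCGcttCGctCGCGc
Each of the 3 holds 15 or more CG. A CG is the same on both strands. A RefSeq promoter entry was available for 30 of 35 members. In the first 250 bases of the entry, 27 of these 30 held 10 or more CG. That held for 74.2% of 11063 tested genes with an entry. For Smarca2, Smarca4 and Dpf1 these 250 bases reach past the first annotated transcript start, so they are longer than the printed runs. The median number of CG was 23.5 for members and 16 over all. The fewest were in Smarcd2 (4), Smarca1 (6) and Bcl11b (9) and the most in Phf10 (51). Smarca2 had 28 and Smarca4 25 in these 250 bases, not all of which lie before the gene. That is a difference of a few CG between the gene that rose and its paralog.

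The core genes encode subunits shared between BAF forms, and 0 of the 8 were called. Not every form holds all of these subunits: SMARCB1 and SMARCE1, for example, are absent from the non-canonical form. Bcl7a, a small accessory subunit gene, was at 163 and 153 CPM in the controls and 137 and 133 CPM in the cKO. Both cKO values were below both controls (log2 fold change −0.23, SE 0.055, edgeR adjusted p = 0.073), and without control replicate 2 the value was −0.27 with an adjusted p of 0.0402. The scaffold gene Smarcc2 was at 255 and 222 CPM in the controls and 215 and 205 CPM in the cKO (−0.18, SE 0.071, adjusted p = 0.25). Its controls differed from each other by more than control replicate 2 differed from either cKO library. Leaving out control replicate 2 gave −0.28 (adjusted p = 0.0329), and leaving out control replicate 1 gave −0.076 (0.682). Its paralog Smarcc1, the scaffold of embryonic BAF, was at 488 and 504 against 510 and 525 CPM (0.063, interval −0.038 to 0.16). Smarcb1, which contacts the nucleosome, was at 138 and 129 against 140 and 142 CPM (0.078, interval −0.049 to 0.21). Smarce1, an HMG-box subunit, was at 422 and 408 against 405 and 398 CPM (−0.047, interval −0.15 to 0.053). The Smarcd paralogs, which link BAF to transcription factors, had log2 fold changes of −0.065 (Smarcd1), 0.16 (Smarcd2) and −0.047 (Smarcd3), each with an interval that included 0.

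The genes that set the BAF type were also without a call. Arid1a, the DNA-binding subunit of most canonical BAF, was at 425 and 433 CPM in the controls and 404 and 395 CPM in the cKO (−0.10, SE 0.042, edgeR adjusted p = 0.26). The groups did not overlap, at a control level 1.07 times that of the cKO. Arid1b was at 105 ± 2.0 against 101 ± 1.5 CPM (−0.047). The PBAF genes Arid2 (−0.033), Pbrm1, which encodes a protein with many bromodomains (−0.046), and Brd7 (0.070) had adjusted p of 0.54 to 0.77. Their summed level was 643 and 634 CPM in the controls and 632 and 631 CPM in the cKO. Phf10, which also marks PBAF, is not in this sum (−0.13, edgeR adjusted p = 0.38) and is described with the progenitor genes. Brd9, of non-canonical BAF, was at 76.3 and 67.5 against 62.2 and 65.1 CPM (−0.18, SE 0.077, adjusted p = 0.29).

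The 4 progenitor BAF genes had nearly equal sums in the 2 groups, a ratio of 0.985, and the 4 neuronal genes a ratio of 0.761. None of the 4 progenitor genes was called. Actl6a, which encodes an actin-related subunit, was at 183 and 177 CPM in the controls and 165 and 180 CPM in the cKO. Phf10 was at 120 and 131 against 112 and 119 CPM, and Dpf2, a PHD-finger subunit gene, at 189 and 198 against 196 and 200.005 CPM. Ss18 was at 137 and 141 against 144 and 141 CPM. The groups overlapped for Actl6a, Dpf2 and Ss18, and for Phf10 the cKO values were just below the lower control. Log2 fold changes ran from −0.13 (Phf10) to 0.036 (Dpf2), and the 4 genes summed to 629 and 647 CPM in the controls and 617 and 640 CPM in the cKO.

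None of the 4 neuronal genes was called either. All 4 had a log2 fold change below 0 (median −0.35), as did 50.1% of all genes tested. For Actl6b and Dpf3 the sign changed when single libraries were left out. Ss18l1, also called CREST, a calcium-responsive coactivator gene, was at 25.3 and 24.5 CPM in the controls and 19.1 and 18.0 CPM in the cKO. The groups did not overlap, and their gap was larger than the spread within either (−0.42, SE 0.11, interval −0.67 to −0.17, edgeR adjusted p = 0.084; unadjusted p = 0.0049). Dpf1, a neuron-specific PHD-finger gene, was at 36.1 and 30.1 against 24.7 and 25.5 CPM (−0.40, SE 0.11, adjusted p = 0.12), and without control replicate 2 its value was −0.52 with an adjusted p of 0.0383, against −0.26 (0.453) without control replicate 1. Actl6b, needed for dendrite growth in neurons, had 28 and 15 counts in the controls and 12 and 23 in the cKO, about 1 CPM in each group. Dpf3 had 15 and 62 counts in the controls and 36 and 34 in the cKO. For these scarce genes the groups overlapped and the intervals, −1.50 to 0.92 and −1.48 to 1.23, include changes of 1.5-fold in either direction, so a change of that size was not detectable between these libraries. The 4 neuronal genes summed to 63.9 and 59.2 CPM in the controls and 46.7 and 46.9 CPM in the cKO. The neuron marker sum moved in the same direction, with a ratio of 0.648, and its part in the neuronal subunit values was not tested.

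Ratios of neuronal to progenitor paralogs within a library do not depend on library scaling. Ss18l1 made up 15.5% and 14.8% of Ss18l1 and Ss18 counts in the controls and 11.7% and 11.4% in the cKO, and Dpf1 with Dpf3 made up 10.7% and 9.30% against 8.03% and 7.93% of the counts with Dpf2 and Phf10. Both pairs had lower shares in each cKO library than in either control, with log2 ratio differences of −0.46 and −0.35 (exact two-sided permutation p = 0.333 for each, 0.555 adjusted over 5 ratios). Actl6b made up 0.911% and 0.497% of Actl6b and Actl6a counts in the controls and 0.436% and 0.749% in the cKO. These overlapped (difference −0.23, exact permutation p = 0.667), and the sign turned without control replicate 1 (0.20) or cKO replicate 1 (0.15). At this stage the neuronal paralogs were the minor partner by counts in all 4 libraries, in each of these 3 sets.

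**Figure D3:**
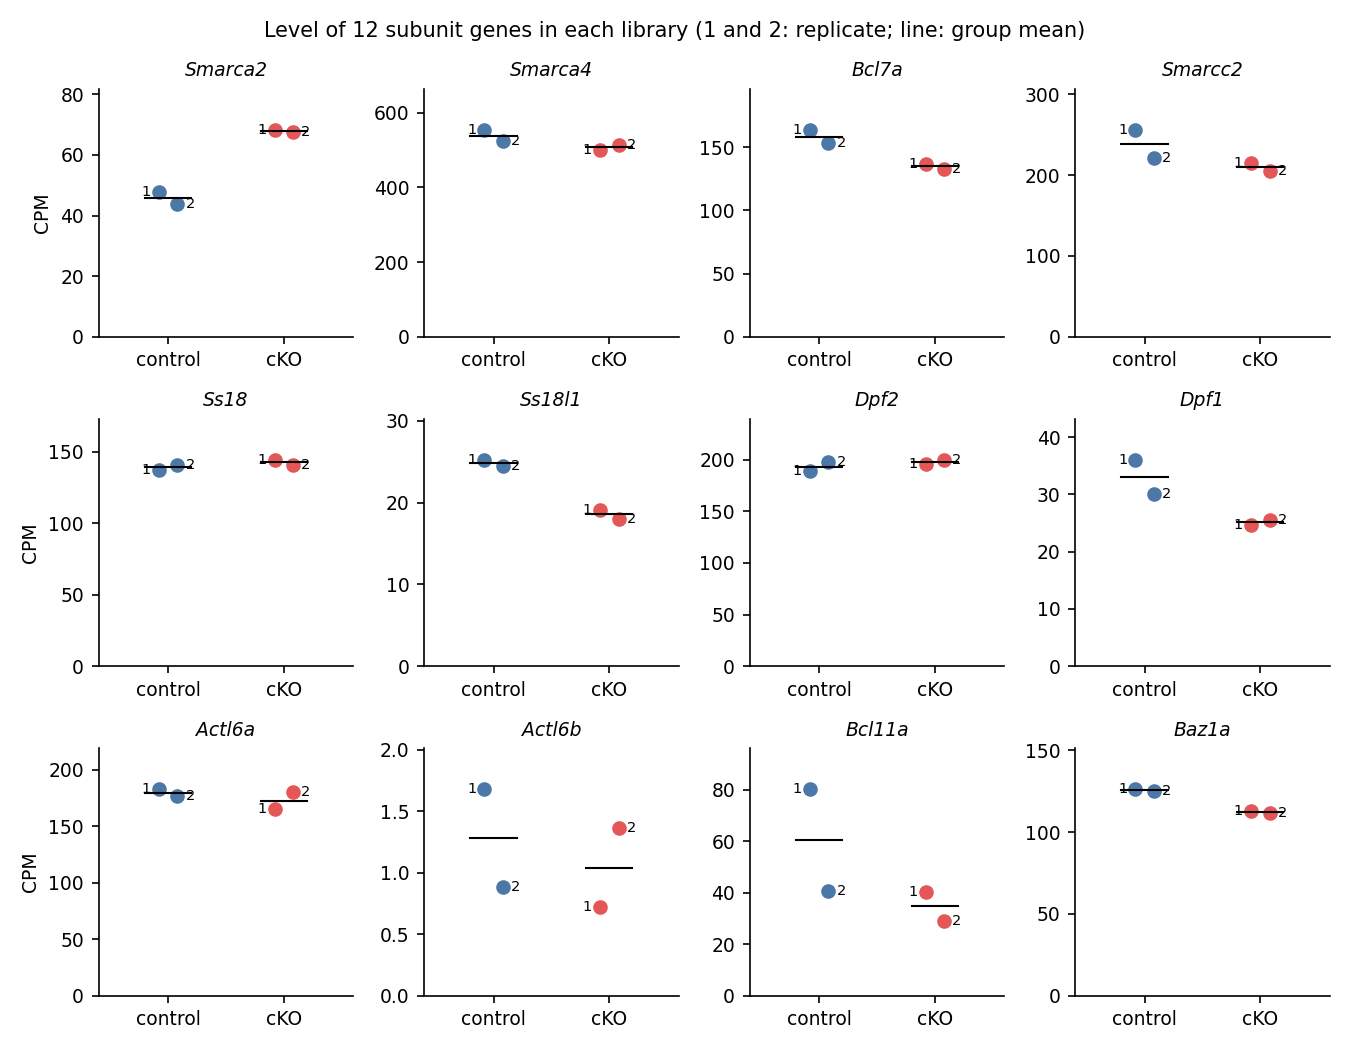
Level in CPM of 12 subunit genes in each of the 4 libraries, on linear axes from 0, with replicate numbers beside the points and the group mean as a line. Smarca2 is higher in both cKO libraries, Ss18l1 and Dpf1 are lower in both, and Ss18, Dpf2, Actl6a and Actl6b overlap.

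**Figure D4:**
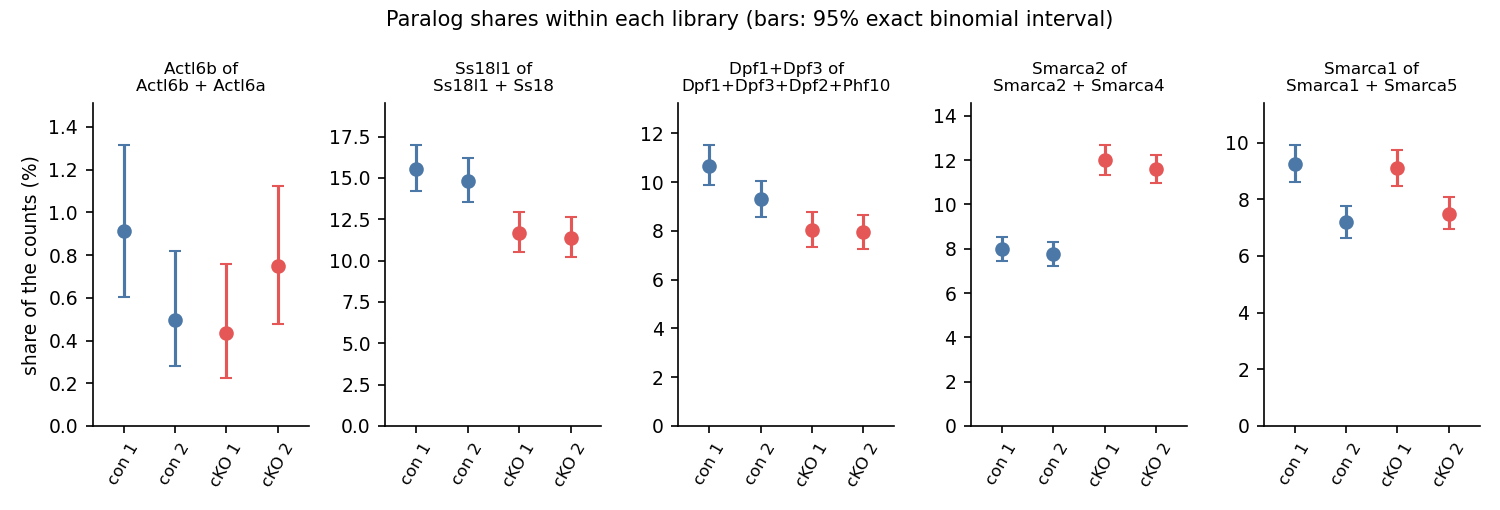
Share of counts within each library, in percent, taken by the first-named gene of 5 paralog sets, with 95% exact binomial intervals. The Smarca2 share goes from 7.86% to 11.8% on average, the Ss18l1 share from 15.2% to 11.5%, and the Smarca1 share splits by replicate number and not by group.

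The zinc finger genes Bcl11a and Bcl11b encode transcription factors of developing neurons that associate with BAF. Bcl11a was at 80.2 and 40.6 CPM in the controls and 40.4 and 29.2 CPM in the cKO. The controls differed from each other by more than control replicate 2 differed from either cKO library, and control replicate 2 and cKO replicate 1 were nearly equal. With all libraries the cKO differed by −0.80 on the log2 scale (SE 0.29, edgeR adjusted p = 0.22). Dropping control replicate 2 gave −1.21 (adjusted p = 0.00195), and dropping control replicate 1 gave −0.22 (0.664). Bcl11b was at 30.4 and 21.4 against 21.03 and 17.1 CPM (−0.44, SE 0.18, adjusted p = 0.28), with values of −0.67 (0.0446) and −0.16 (0.757) in the same fits. The neuron marker sum was also highest in control replicate 1, but gene by gene 9 of the 16 markers were higher in control replicate 1 than in control replicate 2 and 7 were lower. Their part in these values was not tested.

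**Figure D5:**
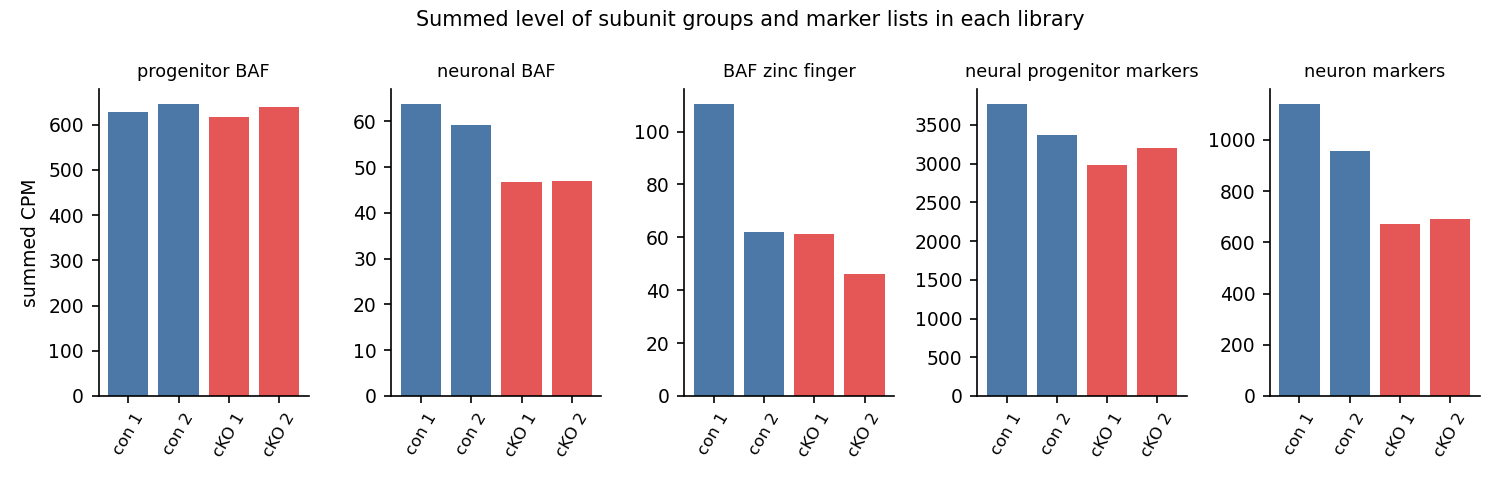
Summed CPM of the progenitor BAF, neuronal BAF and BAF zinc finger genes and of neural progenitor and neuron markers in each library; bars start at 0 and each panel has its own scale. Progenitor BAF sums stay between 617 and 647, neuronal BAF sums are 59.2 to 63.9 in the controls and 46.7 to 46.9 in the cKO, and the zinc finger sum of control replicate 1 is the highest of the 4 libraries.

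The ISWI family had 0 of 6 genes called, and log2 fold changes from −0.16 to 0.081. Its ATPase genes, Smarca5, used in dividing progenitors, and Smarca1, used more in neurons, were at 430 and 455 against 445 and 473 CPM (0.054, interval −0.064 to 0.17) and at 43.8 and 35.2 against 44.5 and 38.3 CPM (0.069, interval −0.22 to 0.36). Smarca1 took 9.24% and 7.19% of the ISWI ATPase counts in the controls and 9.10% and 7.49% in the cKO, so libraries with the same replicate number lay closer than libraries of the same group. The log2 ratio differed by 0.020 (exact permutation p = 1.00), and its sign turned without control replicate 2 (−0.18) or cKO replicate 1 (−0.13). Among the partner genes, Baz1a, the ACF and CHRAC subunit, was at 126 and 125 CPM in the controls and 113 and 112 CPM in the cKO. The 2 groups were each tight and apart, at a fold of 1.12 (−0.16, SE 0.050, edgeR adjusted p = 0.15). Baz1b, of the WICH complex, was at 545 and 522 against 491 and 508 CPM (−0.094, interval −0.20 to 0.010), Baz2a, of the nucleolar NoRC complex, at 157 and 170 against 169 and 177 CPM (0.081) and Bptf, the large subunit of NURF, at 300 and 298 against 291 and 292 CPM (−0.036).

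The INO80 family likewise had 0 of 3 genes called. The ATPase gene Ino80 was at 70.1 and 59.6 CPM in the controls and 59.6 and 59.9 CPM in the cKO (−0.12, SE 0.086, edgeR adjusted p = 0.54). Control replicate 1 was above the other 3 libraries, and without it the value was 0.0031. Srcap, whose complex deposits H2A.Z, was at 297 and 295 against 280 and 281 CPM (−0.075, SE 0.042, adjusted p = 0.42). Ep400, the ATPase of the TIP60 complex, was at 305 and 312 against 304 and 306 CPM (−0.014, interval −0.11 to 0.086), the smallest difference among the 3.

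Other subunits of the same complexes were also without a call. Of 39 further genes (4 BAF, 7 ISWI, 13 INO80, 15 SRCAP and TIP60), 39 were tested, 0 were called in either direction by edgeR, and 3 had an unadjusted p under 0.05. Their median log2 fold change was −0.054, with 28 below 0, and the range was −0.24 to 0.16. The smallest p in each list belonged to Bicral, of non-canonical BAF (−0.24, adjusted p = 0.33), Baz2b, an ISWI partner gene (−0.19, 0.12), Tfpt, of INO80 (−0.22, 0.40), and Epc1, of TIP60 (−0.15, 0.25). Summed, these genes were at 4290 and 4207 CPM in the controls and 4140 and 4206 CPM in the cKO, so cKO replicate 2 was level with control replicate 2.

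Levels of different genes were compared per kb, as CPM divided by the length of the longest protein-coding transcript in GENCODE M21, with the mean over the controls given. Smarce1 was highest at 142 ± 3.3 CPM per kb (SD, n = 2), above Actl6a (89.4 ± 2.1), Smarcc1 (85.9 ± 2.0), Smarca4 (84.5 ± 3.3), Baz1b (82.1 ± 2.5) and Smarcb1 (80.5 ± 3.8). From Smarcc1 to Smarcb1 the libraries of neighbouring genes overlapped, while those of Actl6a lay just above. Smarca5 was at 72.4 ± 2.8 and Smarcd1 at 63.2 ± 2.1. At the low end stood Smarca2 (7.76 ± 0.47), Ss18l1 (5.73 ± 0.12), Bcl11b (3.19 ± 0.78), Actl6b (0.805 ± 0.35) and Dpf3 (0.726 ± 0.62), of which Actl6b and Dpf3 overlapped. Smarca4 was thus 10.9 times as high per kb as Smarca2 in the controls and 6.95 times in the cKO. With the union of all annotated exons as length, chosen after the data were seen, these ratios were 25.8 and 16.5 and Smarca4 ranked first. Of the 35 genes, 18 share exon bases with another gene in GENCODE M21, 12 of them with a gene on the opposite strand.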

How the data were processed

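RNA was sequenced from 4 forebrain libraries. Per the file headers, the authors made raw counts with featureCounts 2.0.1 on paired-end reads, over exons of a RefSeq annotation of mm10 (the GRCm38 assembly), with no strand option. The submitters' processing notes name HISAT2 and DESeq2, without versions. The log2 fold changes and adjusted p-values of the authors' deposited comparison table were used only where that table is named.

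Counts were filtered with filterByExpr (minimum count 10), scaled by TMM and tested with edgeR 4.0.16 in R 4.3.3 (quasi-likelihood test, no covariate, all genes in 1 fit, Benjamini-Hochberg). SE was the size of the log2 fold change over the root of F, and 95% intervals used the fit's degrees of freedom. The common biological coefficient of variation was 0.0785. Replicates differed beyond counting noise (chi-square per degree of freedom 4.78 and 4.07). Paralog ratios added 0.5 to each count and were compared by exact permutation. The edgeR step was tested on simulated data. Alternatives used DESeq2 1.42.0 and limma 3.58.1. Plots used matplotlib 3.10.9, and 0 columns were left without a sample. Members, lists and roles were chosen with earlier results of these data known. All members are named; all 4 values are given for the called gene, the progenitor and neuronal subunits and the 5 others of smallest p, and for further members where they help. Marker lists are given as sums and counts.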

Additional observations from a re-analysis of the deposited data

How the results depend on the processing

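The log2 fold change of Smarca2 kept its sign and its call under all 11 alternatives (other scalings, filters, tests, the replicate block and each library left out). Over the members, 383 values were recomputed; 365 kept sign and side of the threshold, 0 lost a call, 5 gained one (all without control replicate 2, given above) and 13 changed sign, none of them called. Members called lower numbered 0 to 5 when a library was left out. All genes called numbered 211 to 769 without a library. With the replicate number as a block they were 348, and Smarca2 remained the called member (adjusted p = 0.0262). Deviations of same-numbered libraries correlated at −0.0531, and the libraries are treated as sharing only a number. Sign changes on leaving out a library gave ranges of −0.11 to 0.018 (Smarcd3), −0.82 to 0.24 (Actl6b), −0.23 to 0.0031 (Ino80), −0.80 to 1.21 (Dpf3), −0.079 to 0.24 (Smarca1), −0.030 to 0.0027 (Ep400) and −0.12 to 0.0062 (Actl6a). Dpf3 was at 0.19 with limma-voom and 0.082 with the block, and Ep400 at 2.58e-05 with upper-quartile factors. The paralog log2 ratio ran from −0.66 to 0.20 for Actl6b over Actl6a and from −0.18 to 0.22 for Smarca1 over Smarca5; the cause was not tested. A fit without a library assumes that the lone library varies like the other group. Exon-union lengths moved levels per kb. Actl6b and Dpf3 had 12 to 62 counts per library, and their SE of 0.52 and 0.58 were the widest among the members.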
